A study of Mus musculus with 8 samples.

Results

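Rab4a, Cep162 and Gfap were the 3 protein-coding genes with the largest fall in mean expression after exposure to cigarette smoke (CS) in the fiber cells (FC) of the mouse lens. They are 3 of 35275 genes listed, and the order was taken over the 9232 protein-coding genes that reached a mean of 1 FPKM in one group and were not at 0 throughout the other, which leaves out Npy (described further on). They were chosen on the group means, by the log2 ratio of mean expression in CS-exposed mice to that in untreated control (Ct) mice, so the difference between groups is given for them as a description and without a test. In Rab4a and Cep162, 2 of the 4 untreated Ct pools held 90.3% and 93.5% of the reads of that group, and in Gfap 1 pool held 58.7%, although 3 of the 4 lay above every CS-exposed pool. Cep162 reached 19.7 and 7.28 FPKM in Ct replicates 3 and 4 but only 0.945 to 1.37 FPKM elsewhere (6 libraries), and without these 2 pools, which are also the untreated Ct pools with Xist, the RNA of the inactive X chromosome, its mean was 1.09 times higher in CS-exposed mice.

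C57BL/6 mice were compared in 8 libraries of 4 CS-exposed and 4 untreated Ct pools, each pool holding the FC from right eyes of 4 mice, dissected free of epithelium by hand. CS-exposed mice were born in a smoke chamber and stayed in the exposure for 5 hours/day and 5 days/week over 3.5 months, and untreated Ct mice of the same age were kept in the animal facility. Libraries were made from total RNA, and the authors gave expression as FPKM, that is, fragments per length of gene and per depth of library. FPKM rise in steps worth 1 read, from which the reads behind each value were found, and the depth of the libraries ranged from 0.910 to 1.17 times that of Ct replicate 1.

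Rab4a is a small GTPase of early endosomes that returns internalised membrane proteins rapidly to the cell surface. Cep162 is a centrosomal protein that binds microtubules at the distal end of the centriole and helps to build the transition zone at the base of the cilium. Gfap forms intermediate filaments and is the classical marker of astrocytes, and in the retina it is raised in Muller glia under stress. The lens builds its own filaments mainly from Vim and from the beaded filament proteins Bfsp1 and Bfsp2, and fiber cells lose their organelles as they mature.

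On GRCm38 (GENCODE M21), Rab4a lies on chromosome 8 from 123805985 to 123835287 on the plus strand, with 1757 exonic bases. Cep162 lies on chromosome 9 from 87189577 to 87255536 on the minus strand, with 11607 exonic bases, and Gfap on chromosome 11 from 102887336 to 102900912 on the minus strand, with 4218. None of the exonic bases of the 3 genes lay in an exon of another annotated gene, and 0% of the stretches of 100 bases in their transcripts was found in a transcript of another gene on either strand.
The 250 bases before the RefSeq start of Cep162 and of Gfap are shown because the values of both genes differed so widely between pools of the same group. They are from RefSeq on GRCm38.p6, written 5′ to 3′ on the minus strand, where both genes lie, and capitals mark the only motif found. The window of Gfap lies inside the span given above, which reaches further upstream through a non-coding transcript of the gene.
Cep162, chr9:87255533-87255782: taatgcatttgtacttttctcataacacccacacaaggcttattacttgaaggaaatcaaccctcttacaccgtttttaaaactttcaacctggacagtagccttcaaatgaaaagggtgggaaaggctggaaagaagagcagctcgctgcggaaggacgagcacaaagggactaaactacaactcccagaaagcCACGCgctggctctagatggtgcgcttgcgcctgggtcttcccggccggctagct
Gfap, chr11:102897201-102897450: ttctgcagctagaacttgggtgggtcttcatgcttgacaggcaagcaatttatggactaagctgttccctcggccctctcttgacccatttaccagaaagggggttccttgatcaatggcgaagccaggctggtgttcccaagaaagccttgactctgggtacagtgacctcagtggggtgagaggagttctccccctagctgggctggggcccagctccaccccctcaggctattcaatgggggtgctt
The motifs searched, on both strands, were GCGTG (the core of the xenobiotic response element bound by the aryl hydrocarbon receptor), TGACNNNGC (the core of the antioxidant response element), GGGCGG (GC box), CCAAT and TATAAA. The capitals in Cep162 are 1 match to GCGTG on the opposite strand, 55 bases before the start. Windows of this length hold GCGTG in 28.2% of 32851 promoters, TGACNNNGC in 10.2%, GGGCGG in 32.7%, CCAAT in 33.8% and TATAAA in 12.4%. Such matches are a description of the letters in this window.

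The identity of the pools was checked on marker genes. The 10 fiber markers, crystallins and fiber membrane genes among them, summed to between 323914 and 333369 FPKM in untreated Ct and between 315836 and 327276 FPKM in CS-exposed pools. A limma p value under 0.05 was found for 0 of the 10 that were tested, near the share of 4.83% over all 9794 genes. Xist was between 41.1 and 49.0 FPKM in replicates 3 and 4 of both groups and at most 0.0113 FPKM in replicates 1 and 2. The Y-linked gene Ddx3y was between 6.25 and 7.92 FPKM in replicates 1 and 2 of both groups, at 2.28 FPKM (244 reads) in Ct replicate 3, at 0.0953 FPKM in CS replicate 3 and at 0 in both replicates 4. Ct replicate 3 thus held Xist at a full level together with Y-linked transcripts, although pools were designed as male or female, and it stands apart from the other 7 libraries in this. It is 1 of the pools on which the values of Cep162 and Rab4a rest, so these are given with and without it.

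Cep162 was at 1.11, 0.956, 19.7 and 7.28 FPKM in the 4 untreated Ct libraries and at 1.37, 1.21, 0.945 and 0.986 FPKM in the 4 CS-exposed libraries. Ct replicate 3 rested on 3515 reads and Ct replicate 4 on 1012, and the other 6 libraries on 145 to 222 reads each. Both high libraries were far above the other 6, among which Ct and CS values were mixed. The mean was 7.25 ± 8.79 FPKM (SD, n = 4) in untreated Ct and 1.13 ± 0.199 FPKM (SD, n = 4) in CS-exposed pools, a ratio of 6.43. Against the mean of the other 6 libraries (1.10 ± 0.169 FPKM, SD), Ct replicate 3 was 17.9-fold and Ct replicate 4 6.64-fold higher. Together they held 93.5% of the reads of Cep162 in untreated Ct mice.

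Rab4a was at 0.284, 0.178, 2.67 and 1.29 FPKM in the 4 untreated Ct libraries and at 0.0334, 0, 0.446 and 0 FPKM in the 4 CS-exposed libraries. The reads behind these values were 8, 5, 88 and 33 in untreated Ct and 1, 0, 13 and 0 in CS-exposed mice. Ct replicates 3 and 4 were again the highest, and CS replicate 3 lay above Ct replicates 1 and 2, so that the groups overlapped. This overlap sets a CS pool with Xist against Ct pools without it, and the groups are compared inside each Xist class further on. The mean was 1.10 ± 1.16 FPKM (SD, n = 4) in untreated Ct and 0.120 ± 0.218 FPKM (SD, n = 4) in CS-exposed pools, a ratio of 9.20. Ct replicates 3 and 4 held 90.3% of the 134 reads of Rab4a in untreated Ct mice. The exact Poisson 95% interval of the 13 reads in CS replicate 3 (6.92 to 22.2) overlapped those of the 8 reads in Ct replicate 1 (3.45 to 15.8) and the 5 reads in Ct replicate 2 (1.62 to 11.7). A count of 0 allows up to 3 reads as a one-sided limit, or 0.0916 FPKM in CS replicate 2 and 0.0977 FPKM in CS replicate 4, and 3.69 reads by the two-sided interval used for the other counts. These limits cover counting error only.

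Gfap was at 0.627, 2.83, 0.942 and 0.271 FPKM in the 4 untreated Ct libraries and at 0.268, 0.196, 0.313 and 0.227 FPKM in the 4 CS-exposed libraries. Here Ct replicate 2 was the highest with 148 reads, followed by Ct replicate 3 with 58 and Ct replicate 1 with 33 reads. Ct replicate 4, with 13 reads, lay inside the range of the CS-exposed libraries, which had 12 to 17 reads each. The mean was 1.17 ± 1.14 FPKM (SD, n = 4) in untreated Ct and 0.251 ± 0.0507 FPKM (SD, n = 4) in CS-exposed pools, a ratio of 4.65. Of the 3 genes, Gfap was the 1 in which 3 of the 4 untreated Ct libraries were above every CS-exposed library. For Rab4a and Cep162 this held for 2 of 4.

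**Figure D1:**
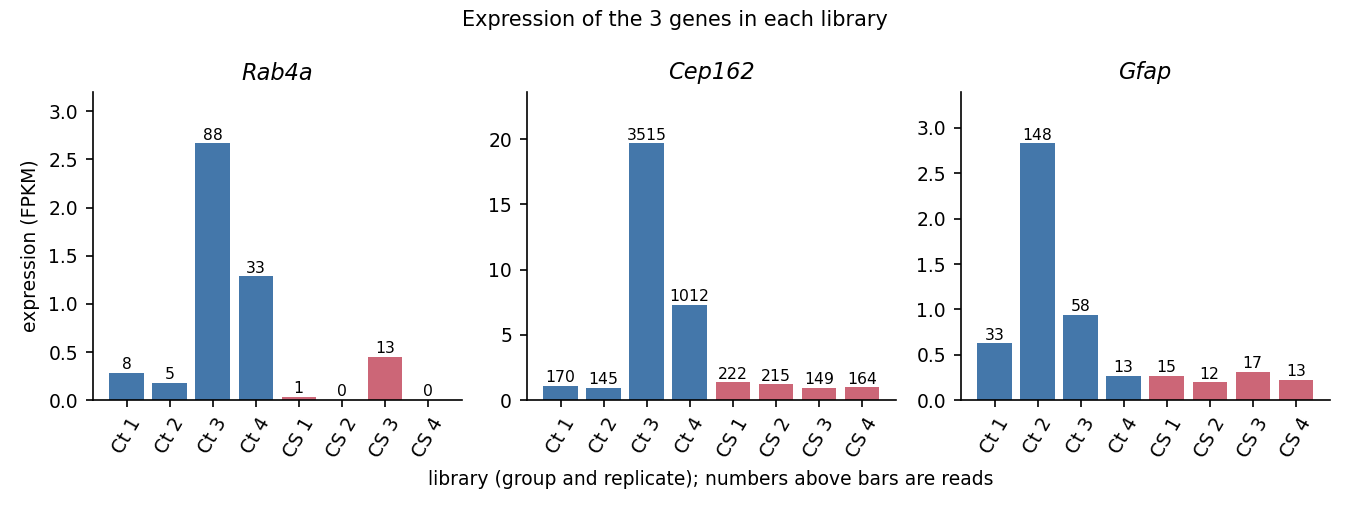
Expression of Rab4a, Cep162 and Gfap in FPKM on the y axis for the 4 untreated Ct libraries (blue) and the 4 CS-exposed libraries (red), 1 bar per library, with the recovered reads above each bar and a separate linear scale per gene. Cep162 and Rab4a are highest in Ct replicates 3 and 4, and Gfap is highest in Ct replicate 2.

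In none of the 3 genes (0 of 3) were all CS-exposed libraries below all untreated Ct libraries. Of 9794 genes whose mean reached 1 FPKM in one group or the other, this was the case for 1.29%, and the groups failed to overlap in either direction for 3.08%. On the log2(FPKM + 0.1) scale, which understates the change of low genes, the group difference (CS minus Ct) was -2.28 for Rab4a (standard error 0.88), -1.60 for Cep162 (standard error 0.76) and -1.45 for Gfap (standard error 0.57). The spread inside untreated Ct is given as a description, since the 3 genes were chosen on these values and Rab4a and Gfap passed the filter only through untreated Ct. Cep162 ranked 15 with an SD of 2.06 on the log2 scale, Rab4a ranked 32 with 1.56 and Gfap ranked 58 with 1.24, where the median gene had 0.16. Inside the CS-exposed group Cep162 and Gfap had an SD of 0.23 and 0.21 and ranked 2843 and 3402. The SD of Rab4a there, 1.17, comes from 1, 0, 13 and 0 reads and depends on the pseudocount.

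**Figure D2:**
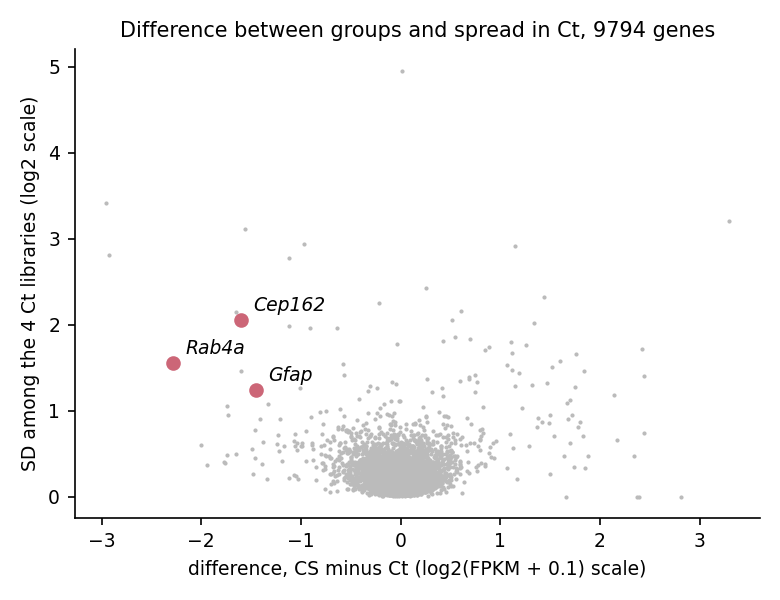
Difference between groups on the x axis (CS minus Ct, log2(FPKM + 0.1) scale) and SD among the 4 untreated Ct libraries on the y axis, 1 point for each of 9794 genes. Rab4a, Cep162 and Gfap (red) lie far to the left and, with an SD of 1.56, 2.06 and 1.24, well above the median gene at 0.16.

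Leaving out single libraries changed the size of the differences. For Cep162 the ratio of untreated Ct to CS-exposed means was 2.76 without Ct replicate 3 and 6.42 without Ct replicate 4. Without both, untreated Ct had a mean of 1.03 ± 0.111 FPKM (SD, n = 2) against 1.13 ± 0.199 FPKM (SD, n = 4) under CS, and the difference turned to 0.10 on the log2 scale (standard error 0.27). For Rab4a the ratio was 4.86 without Ct replicate 3 and 1.93 without both Ct replicates 3 and 4, when the mean of untreated Ct was 0.231 ± 0.0743 FPKM (SD, n = 2). For Gfap the ratio was 2.44 without Ct replicate 2, with 0.613 ± 0.336 FPKM (SD, n = 3) in untreated Ct, and 6.88 without Ct replicates 3 and 4. Cep162 was the 1 gene of the 3 whose direction turned when libraries were left out. Leaving out Ct replicates 3 and 4 sets Ct pools without Xist against CS pools of both kinds, so the groups were also compared inside each Xist class, with 2 pools a group and no test. In replicates 3 and 4, with Xist, Cep162 was at 13.5 ± 8.76 FPKM in untreated Ct and 0.966 ± 0.0296 FPKM under CS (SD, n = 2 for both), and in replicates 1 and 2, without Xist, at 1.03 ± 0.111 and 1.29 ± 0.111 FPKM. Rab4a had a ratio of Ct to CS means of 8.86 with Xist and 13.8 without, the latter on 13 reads against 1, and Gfap of 2.25 and 7.44. With 2 pools a group, all CS pools lay below all Ct pools for 13.7% of the 9794 genes in the pools with Xist and for 18.7% in those without it, and above them for 21.1% and 14.7%, so nothing is read from the members' order inside a class.

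**Figure D3:**
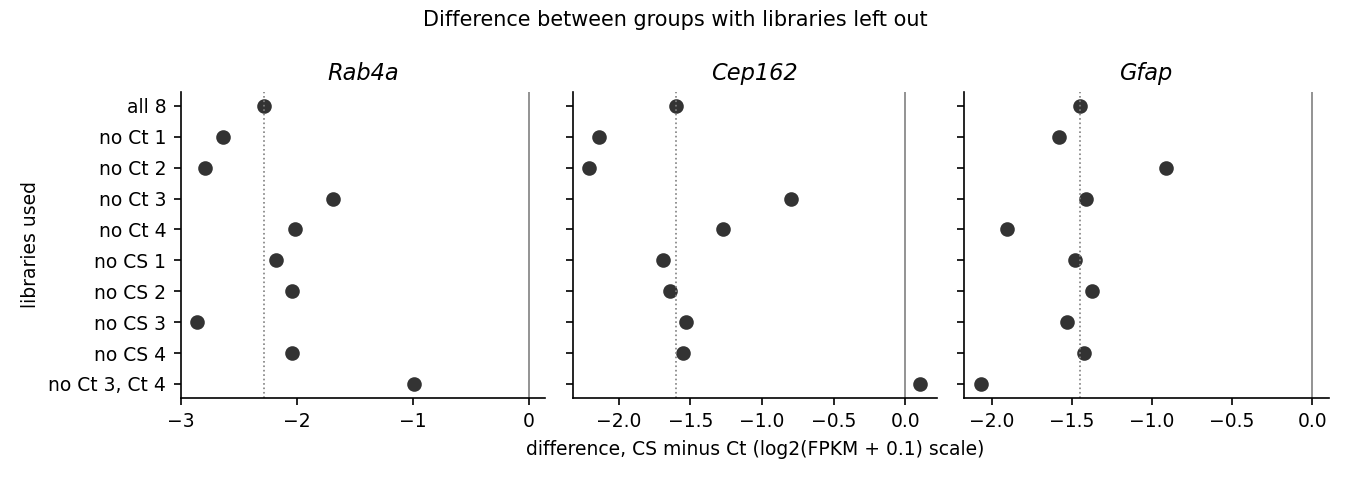
Difference between groups on the x axis (CS minus Ct, log2(FPKM + 0.1) scale) with all 8 libraries, with each library left out and with Ct replicates 3 and 4 both left out, 1 point per set of libraries. The dotted line is the value with all 8 libraries, and only Cep162 crosses 0, at 0.10 without Ct replicates 3 and 4.

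By the order of the log2 ratio of mean FPKM among 9232 protein-coding genes, Rab4a was at -3.20, Cep162 at -2.69 and Gfap at -2.22. Just outside lay Gm6658 at -1.79, with 71 reads in all 8 libraries together, and Gm10800 at -1.55, with 463 reads. Npy, the neuropeptide Y gene, and Gm17720 were listed at 0 in every CS-exposed library and have no ratio. Npy had 115, 8, 0 and 3 reads in the 4 untreated Ct libraries, and Gm17720 had 1 read in Ct replicate 1. Among these genes too, 91.3% of the reads of Npy came from 1 pool.

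The genes beside the 3 members on the chromosome were mostly near the limit of detection. Mrap2, a gene for an accessory protein of melanocortin receptors, ends 5532 bases from Cep162 and had 7 reads in Ct replicate 3, 5 in Ct replicate 4 and 0 in each of the other 6 libraries. Its few reads were therefore in the same 2 libraries as the high values of Cep162. Tbx18, the nearest protein-coding gene on the other side at 447264 bases, was listed at 0 in every library. Around Rab4a, Ccsap had 0 to 3 reads per library and Rhou was between 0.466 and 1.03 FPKM, and Gm20388, an annotated gene that spans Rab4a on the same strand without sharing its exons, was listed at 0. Around Gfap, Kif18b had 1 to 11 reads and Fam187a at most 1 read. Gm26668, a non-coding gene that overlaps Gfap on the opposite strand without a shared exonic base, had 8 to 26 reads and its highest values in CS replicate 3 (0.335 FPKM) and Ct replicate 3 (0.308 FPKM).

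Over the 8 libraries, Rab4a and Cep162 had a Pearson r of 0.83 on the log2(FPKM + 0.1) scale, Rab4a and Gfap of 0.31 and Cep162 and Gfap of 0.10. These are descriptions over 8 points that share their libraries, and that of Rab4a and Cep162 rests on 2 of them. Among all tested genes, the 3 most like Cep162 were Tmem181b-ps (r = 0.97), Notch1 (r = 0.96) and Aldh16a1 (r = 0.93). The 3 genes named for each member were picked for the highest r among all tested genes over 8 libraries. A high r thus follows from the choice, and a link to the member was not tested. Tmem181b-ps, a pseudogene, was at 16.0 FPKM in Ct replicate 3 and 7.43 FPKM in Ct replicate 4, that is 3.35-fold and 1.56-fold above the mean of the other 6 libraries, which lay between 4.46 and 5.16 FPKM. Notch1, a receptor of cell-to-cell signalling, was 1.43-fold and 1.25-fold above the other 6.
Most like Rab4a were Aldh16a1 (r = 0.95), Mtf2, a Polycomb-associated protein (r = 0.93), and Tada1, a subunit of a histone acetyltransferase complex (r = 0.93). Aldh16a1, a member of the aldehyde dehydrogenase family, was at 1.81 and 1.64 FPKM in Ct replicates 3 and 4 and ranged from 1.06 to 1.27 FPKM in the remaining 6. Most like Gfap were Gripap1 (r = 0.98), the pseudogene RP24-142M5.3 (r = 0.95) and F8a (r = 0.92). Gripap1 was at 5.66 FPKM in Ct replicate 2 and 4.73 FPKM in Ct replicate 3, against 3.75 to 4.38 FPKM in the other 6 libraries. RP24-142M5.3 had 11, 23, 17 and 4 reads in untreated Ct and 3 to 5 reads in CS-exposed libraries.

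**Figure D4:**
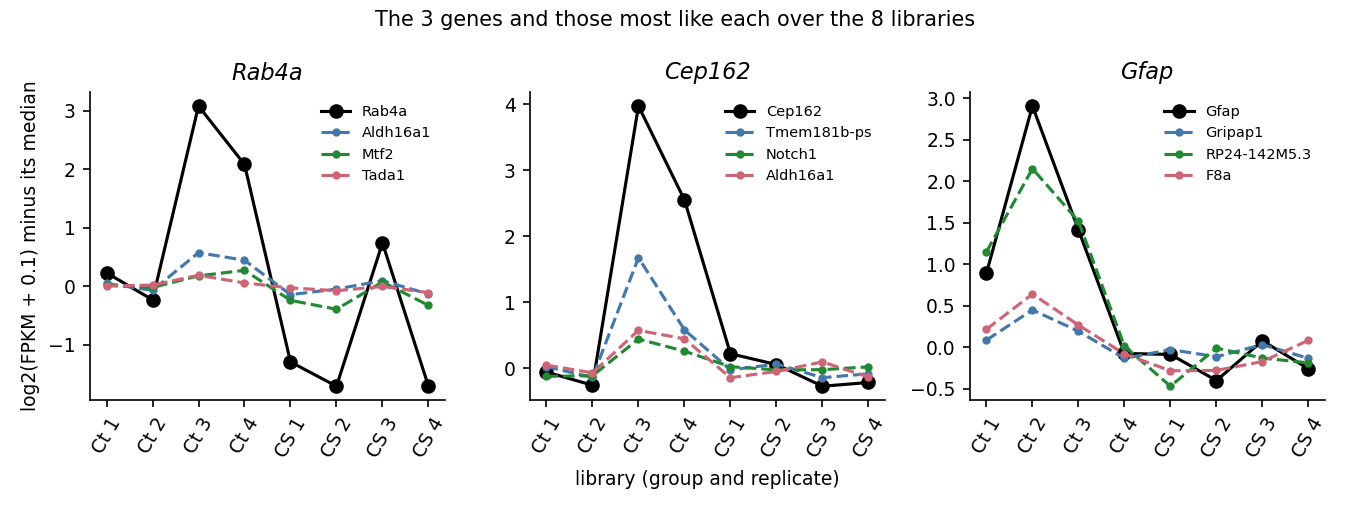
log2(FPKM + 0.1) minus its median over the 8 libraries on the y axis, for each of the 3 genes (black) and the 3 genes with the highest Pearson r with it (coloured), by library on the x axis. Lines only join the points of a gene, and apart from RP24-142M5.3 and Tmem181b-ps the like genes stay within 1 log2 unit of their median.

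The partners of the 3 genes were tested in a limma fit of all 9794 genes, in which 4.83% had a p value under 0.05 (2.08% lower and 2.75% higher under CS) and 0.0102% an adjusted p value under 0.05. Of the 32 genes of the list for Rab4 and the recycling endosome, 27 passed the filter on low values. Among these, 0 had an adjusted p value under 0.05 (smallest limma adjusted p = 0.956), and unadjusted 1 was higher and 0 lower in CS-exposed mice, 3.70% of the list. The median difference of the list was 0.017 on the log2 scale, against 0.0043 over all genes. The gene with an unadjusted p value under 0.05 was Gdi2, which extracts Rab proteins from membranes, at 182 ± 11.3 FPKM in untreated Ct and 198 ± 6.95 FPKM under CS (SD, n = 4 for both, log2 difference 0.12, limma adjusted p = 0.956). The unadjusted count of the list was 0 with median centring, 0 without a trend in the variance, 0 without CS replicate 1 or CS replicate 3 and 2 without Ct replicate 1 or Ct replicate 2. Without Ct replicate 4 it was 1, but of a gene lower in CS-exposed mice, so that the call of Gdi2 was lost there too.
Rab4b, the closest relative of Rab4a, was below the filter at 0.314 ± 0.118 FPKM in untreated Ct and 0.205 ± 0.168 FPKM under CS (SD, n = 4 for both), with 2 to 14 reads per library. Rab4b was at 0.282 and 0.201 FPKM in Ct replicates 3 and 4, where Rab4a was highest. Rabep1, which bridges Rab4 and Rab5, was at 7.01 ± 0.566 and 6.48 ± 0.424 FPKM in untreated Ct and CS-exposed mice (SD, n = 4 each). Rbsn, which also binds both, was at 3.11 ± 0.627 and 3.35 ± 0.151 FPKM, and Rufy1, a Rab4 effector, at 6.79 ± 0.912 and 6.60 ± 0.463 FPKM. Ndrg1, which acts with Rab4a in the recycling of E-cadherin, was at 194 ± 3.96 and 203 ± 4.37 FPKM. On the FPKM scale, which is per length of gene, the group means of these 4 partners all lay above those of Rab4a. Gripap1, also a Rab4 effector, differed by -0.21 on the log2 scale (standard error 0.12, limma adjusted p = 0.956), and Rabep2 by 0.17 (standard error 0.31).

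Of the 34 genes of the list for the cilium transition zone, distal appendages and centrosome, 25 passed the filter, 10 with a difference below and 15 above 0. None had a limma p value under 0.05, with or without adjustment (0 of 25, smallest adjusted p = 0.956), and the median difference was 0.033. Unadjusted, the share over all 9794 genes was 4.83%, and a count of 0 in 25 is near it. The list summed to between 130 and 140 FPKM in untreated Ct and between 138 and 148 FPKM in CS-exposed libraries. In Ct replicates 3 and 4, the 2 libraries in which Cep162 was high, the sums were 140 and 130 FPKM, and 8 and 1 of the 25 genes had their highest value there. The share of all genes highest in each library was not taken, so nothing is read from these counts. Cep290, the transition zone protein that Cep162 helps to place, was at 0.822 ± 0.172 FPKM in untreated Ct and 0.912 ± 0.178 FPKM under CS (SD, n = 4 for both), below the filter. It was at 0.736 and 0.780 FPKM in Ct replicates 3 and 4. Cep164, of the distal appendages, differed by -0.30 (standard error 0.16, limma adjusted p = 0.956). The centriolar satellite genes Cep131 and Pcm1 differed by 0.087 (standard error 0.089) and 0.021 (standard error 0.12), and Ofd1, of the distal centriole, by 0.021 (standard error 0.18).

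Of 18 intermediate filament genes other than Gfap, 10 passed the filter and 0 had a limma p value under 0.05, with or without adjustment (smallest adjusted p = 0.956). Unadjusted, the share over all 9794 genes was 4.83%, and a count of 0 in 10 is near it. Their median difference was -0.072. Vim was at 1022 ± 33.6 FPKM in untreated Ct and 992 ± 31.8 FPKM under CS (SD, n = 4 for both, log2 difference -0.044, standard error 0.036). Bfsp1 was at 7630 ± 483 and 7980 ± 137 FPKM and Bfsp2 at 2589 ± 106 and 2651 ± 55.4 FPKM. Gfap, at most 2.83 FPKM, was thus a trace beside the filaments of the fiber cell in every library. Nes, of progenitor cells, was below the filter at 0.167 ± 0.0555 and 0.118 ± 0.0457 FPKM.

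Of 15 markers of Muller glia and astrocytes, 8 passed the filter, 5 with a difference below and 3 above 0. A limma p value under 0.05 was found for 0 of the 8, with or without adjustment (smallest adjusted p = 0.956). Unadjusted, this is near the share of 4.83% over all 9794 genes. The list summed to between 701 and 755 FPKM in untreated Ct and between 687 and 747 FPKM in CS-exposed libraries, most of it from genes that the lens also expresses, such as Dkk3 and Aldoc. In Ct replicate 2, where Gfap was highest, the sum was 704 FPKM, and 0 of the 8 genes had their highest value there. The share of all genes highest in that library was not taken, so this count is not read as a result. The glial transporter Slc1a3 was at most 0.0549 FPKM, the potassium channel Kcnj10 at most 0.0513 FPKM and S100b at most 0.131 FPKM in any library. In Ct replicate 2 these 3 genes were at 0, 0 and 0.0683 FPKM. Aqp4, the water channel of astrocytes, was at 0.831, 1.04, 2.35 and 1.35 FPKM in untreated Ct and at 0.895, 1.35, 1.66 and 0.600 FPKM in CS-exposed libraries, and so was highest in Ct replicate 3 (log2 difference -0.27, standard error 0.35). Glul, glutamine synthetase, was at 5.74 ± 0.868 and 6.54 ± 0.863 FPKM (SD, n = 4 each).

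**Figure D5:**
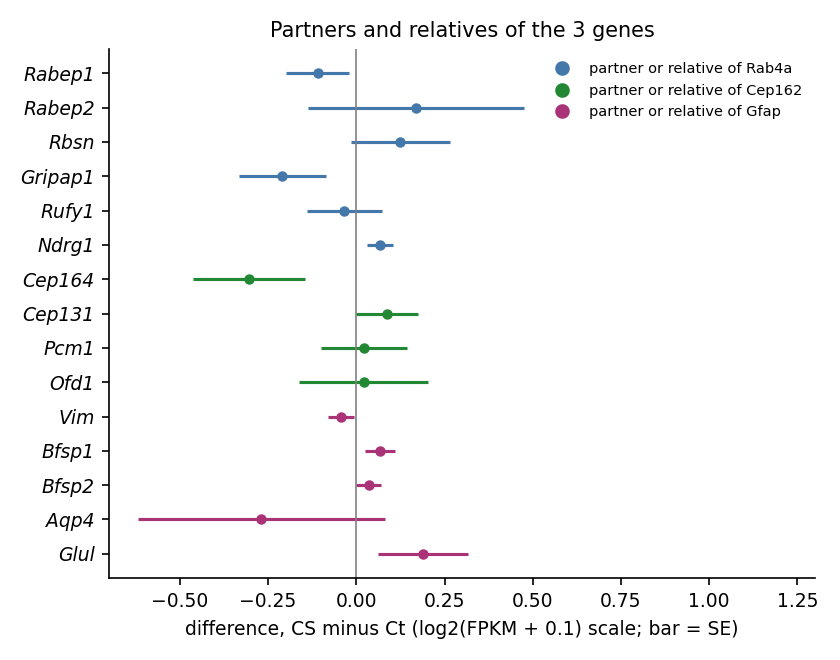
Difference between groups on the x axis (CS minus Ct, log2(FPKM + 0.1) scale) for the partners and relatives of Rab4a (blue), Cep162 (green) and Gfap (purple) that passed the filter, with bars of 1 standard error from limma. All lie between -0.30 (Cep164) and 0.19 (Glul).

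Markers of other cell types were followed in the same libraries. Of the 10 lens epithelium markers 9 passed the filter, of which 6 were highest in Ct replicate 3. The share of all genes highest there was not taken, so nothing is read from this count. Of the 9, 8 had a difference below and 1 above 0 (median -0.067). A limma p value under 0.05 was found for 0 of the 9, near the share of 4.83% over all 9794 genes. The sum, most of it from Sfrp1, Cdkn1c and Itga6, was between 651 and 707 FPKM in untreated Ct and between 652 and 678 FPKM in CS-exposed libraries. Foxe3, the defining transcription factor of the epithelium, was at 64.0 FPKM in Ct replicate 3 but at 25.1 FPKM in Ct replicate 4, and the remaining 6 libraries ranged from 17.5 to 34.8 FPKM. It was thus high in 1 of the 2 pools in which Cep162 and Rab4a were high, and its part in these values was not tested. Rod markers summed to between 10.1 and 26.4 FPKM in untreated Ct and between 30.3 and 85.3 FPKM in CS-exposed libraries, and pigment epithelium markers to between 2.05 and 2.75 FPKM and between 4.04 and 27.5 FPKM. Every CS-exposed pool lay above every untreated Ct pool in both sums. Both were highest in CS replicate 3, the CS-exposed library with the most Rab4a, and their part in it was not tested. With a limma p value under 0.05, 7 of 8 rod and 4 of 4 pigment epithelium genes that passed the filter were higher in CS-exposed mice. Over all 9794 genes this share was 2.75%, and 0 of either list had limma's adjusted p value under 0.05. All 4 pigment epithelium genes passed the filter only through CS-exposed pools, as did the rod genes Sag, Pde6a, Pde6b, Gngt1 and Nrl. The filter thus set their direction, and their counts are no support for a difference. Ttr, the retinol carrier transthyretin, was at 0.454, 0.208, 0.988 and 0.453 FPKM in untreated Ct and at 2.02, 0.959, 13.1 and 2.92 FPKM in CS-exposed libraries, so that its CS mean rests mainly on CS replicate 3. Vascular and immune markers, of which 0 passed the filter, summed to at most 0.530 and 0.759 FPKM. In pools of tissue, fewer cells of a type and less RNA per cell cannot be told apart.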

How the data were processed

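RNA of lens FC from 4 CS-exposed and 4 untreated Ct pools was analysed. The submitters' processing notes name STAR 2.5, HTSeq 0.6.1, DESeq2 and the build GRCm38 (mm10), without saying what each was used for. The authors deposited FPKM per library, and group means of FPKM. The annotation release and the use of strand in counting are not given in the sources used here. The deposited log2 fold change, p-value and adjusted p-value of the authors' comparison were not used.

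On log2(FPKM + 0.1), genes whose mean reached 1 FPKM in Ct or CS pools were tested in limma 3.58.1 (R 4.3.3, lmFit and eBayes), with a trend, in two-sided tests, and p values were adjusted over 9794 genes by Benjamini-Hochberg. The fit was tested on simulated data. Python 3.11.15 with numpy 2.4.6, pandas 2.3.3 and matplotlib 3.10.9 gave the other values and the figures. The relative depth of each library was taken from the commonest ratio to Ct replicate 1, over genes below 0.3 FPKM there. Reads were then recovered as the smallest whole numbers that fit the values of a gene after scaling by depth. In this way 99.8% of tested genes gave whole reads in every library to within 0.01 of a read. A factor common to all 8 values of a gene cannot be seen in this way. The median tested value held 313 reads.

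Groups and replicate numbers were taken from the titles. The pools are separate, and p values measure the spread between them. The fit had no term for sex, so any difference between pools with and without Xist is part of that spread. The members and lists were chosen with earlier results of these data known. Genes named are the members, their partners, up to 3 genes of each list with the smallest p value under 0.05, the 3 genes most like each member, the genes beside it, and those next in the order of the ratio. Npy, Gm17720 and marker genes named for single pools were chosen after their values were seen. Rbsn was matched by its older symbol. No promoter of Rab4a was printed. Alternatives were other pseudocounts, filters and scalings, eBayes without a trend or robust, the replicate block, leaving out each library, and, chosen after seeing the data, leaving out Ct replicates 3 and 4 together. The split by Xist (above 1 FPKM or not) was also chosen after seeing the data. The proteome and metabolome were not analysed here.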

Additional observations from a re-analysis of the deposited data

Results flagged for a closer look

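In 46 groups of 4 libraries, taken over the 3 genes and their partners, 3 libraries lay far from the other 3 of their group on the log2 scale, past the 95% limit of Dixon's test, and chance gives 2.3. Neither the value of Rab4a, a gene chosen on these values whose gap depends on the pseudocount, nor that of S100b, where the gap is fixed by the 0 of the others, is evidence of a library apart. Rab4a was at 0.446 FPKM (13 reads) in CS replicate 3, against 0 to 0.0334 FPKM in the rest of the CS-exposed libraries. Ndrg1 was at 209.5 FPKM in CS replicate 1, against 200.2 to 201.1 FPKM in the others. S100b was at 0.131 FPKM in CS replicate 3 and at 0 in the others.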

How the results depend on the processing

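The direction of the difference between groups stayed the same for Rab4a and Gfap under every setting tried, and for Cep162 under all but 2. Leaving out Ct replicates 3 and 4 together, chosen after seeing the data, turned Cep162 from -1.60 to 0.10 on the log2 scale, since both high libraries were then gone. Inside the pools without Xist, also chosen after seeing the data, Cep162 was at 0.30, and inside those with Xist at -3.50. Rab4a moved from -2.28 to -4.14 with a pseudocount of 0.01 and to -0.77 with a pseudocount of 1, because its values lie near the pseudocount, and Gfap moved from -1.45 to -1.70 and -0.66 and Cep162 to -1.65 and -1.28. Leaving out 1 library at a time gave -2.86 to -1.69 for Rab4a, -2.21 to -0.80 for Cep162 and -1.90 to -0.91 for Gfap. Rab4a without Ct replicate 3 and Gfap without Ct replicate 2 no longer pass the filter and have no standard error there, and neither gene passes a minimum of 5 FPKM.

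Over all genes, 473 had a limma p value under 0.05, 226 with a minimum of 5 FPKM and 862 without a filter, where fewer and more genes were tested, and 418 to 525 with 1 library left out. After adjustment 1 gene was under 0.05, 0 without a filter (862 unadjusted), 0 with eBayes without a trend (498 unadjusted) and 0 to 1 with 1 library left out, 0 being the count without Ct replicate 4. Of the lists, counted unadjusted, Rab4 and recycling endosome had 1 gene, 2 with a robust fit, 0 without a trend or with median centring, and 0 to 2 with 1 library left out. Cilium genes had 0, 3 without a trend, 1 without a filter and 0 to 2 with 1 library left out. The 3 without a trend were lower in CS-exposed mice, and those of the other settings named here were higher. They had 2 without Ct replicate 3 and 1 each without Ct replicate 1, CS replicate 2 or CS replicate 4. Intermediate filament and glial genes had 0, and 0 to 1 with 1 library left out, with 1 filament gene without CS replicate 1 or 2 and 1 glial gene without Ct replicate 4 or CS replicate 3. The cause of these changes in the lists was not tested.

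Same-numbered libraries deviated together with a correlation across genes of 0.012, 0.078, 0.11 and 0.16, and 6 of 8 libraries correlated best with their own number, a hint from the data only, since the labels do not describe pairs. With the replicate block the differences of the 3 genes keep their values, 5 genes had an adjusted p value under 0.05, and the lists had 0 (Rab4), 1 (cilium), 0 (filament) and 1 (glial) genes with a p value under 0.05. Depth limits Rab4a most, with 0 to 88 reads per library, and Gfap, with 12 to 148.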
